A study of Mus musculus with 2 samples.

Results

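The genes described here encode the enzymes that place and remove histone acetyl groups, the scaffolds that hold deacetylases, the enzymes that remove histone methyl groups, and a pair of proteins that read acetyl-lysine. They were chosen by name, as a list of 40 genes, with results of these data known. They were then looked up among the genes that a Sox4 pull-down in mouse progenitor B cells lists for its peaks. The list holds 7 acetyltransferases and acetyltransferase partners, 15 deacetylases, 5 scaffolds, 11 demethylases and 2 readers, of 20953 protein-coding genes in all. A promoter peak is here a peak whose nearest edge was no more than 5 kb from the transcription start site (TSS) of any transcript of the gene.

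The cells were C57BL/6 progenitor B cells from embryonic fetal liver, and carried retroviral constructs added in turn with a sort after each: BirA, then p190 Bcr-Abl, then SE-Cre and last BAP-Sox4. BirA is a biotin ligase that marks the BAP tag, p190 Bcr-Abl is the oncogene that immortalizes the cells, and Sox4 is an HMG-box transcription factor, present here as a tagged retroviral copy. The series holds 1 streptavidin pull-down library (bioChIP) and 1 input chromatin library of these same cells, and 1 peak list of 8730 peaks was analysed. The labels name SOX4 as the antibody although their protocol describes streptavidin beads, and they do not give the number of cultures. With 1 library there was no replicate and no test between conditions, a peak is a local excess of tags and no proof of binding, and the cell type could not be checked against expression markers.

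Acetyltransferases add acetyl groups to histone lysines, which loosens chromatin and creates docking sites for bromodomain proteins. Deacetylases remove them, either with a zinc ion (the HDAC enzymes) or with NAD (the sirtuins), and most nuclear HDAC enzymes work inside scaffolded complexes such as SIN3, NCOR and CoREST. Lysine demethylases of the KDM families oxidise methyl groups away from histone tails. In B-cell precursors several of these enzymes are known partners of the factors that switch lineage genes on and off.

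Most of the genes were marked at the start. Promoter peaks were found for 30 of the 40 (75%, exact 95% interval 58.8 to 87.3%), where 32.8% of all protein-coding genes had one. A peak covered a TSS of 27 of them (67.5%, background 28.4%), and 35 were listed for some peak (87.5%, background 48.9%). The listing reaches up to 25 kb from a gene. The strongest peaks belonged to Epc1, Fam60a and Trim28, with tags 40, 26.5 and 40.05 times the expected background. No peak was listed for Kat2a, Hdac4, Hdac11, Sin3b or Kdm4c. Hdac3, Hdac5, Hdac10, Sirt3 and Kdm4a were listed only for peaks beyond the promoter window.

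Among the classes, promoter peaks were found for 6 of 7 acetyltransferase genes (85.7%, 42.1 to 99.6%), 9 of 15 deacetylase genes (60.0%, 32.3 to 83.7%), 4 of 5 scaffold genes (80.0%, 28.4 to 99.5%), 9 of 11 demethylase genes (81.8%, 48.2 to 97.7%) and both reader genes. The deacetylases had the lowest share at this window, but the intervals of all classes overlap. Those of the deacetylases, scaffolds and readers also hold the 32.8% of all protein-coding genes. The order changed with the setting. With a window of 20 kb, 12 of 15 deacetylase genes (80.0%) had a peak, level with the scaffold genes (80.0%, background 41.9%). Among peaks of fold 5 or more the acetyltransferase genes had the lowest share (28.6% against 33.3%, background 11.9%). All intervals cover counting error only, and genes are not replicates. The list of 40 was drawn up with results of these data known, so the same count was made over wider families, adding related genes left out of the list. These wider lists are a choice of genes too, made with the same knowledge. Of their 76 genes, 56 had a promoter peak (73.7%, 62.3 to 83.1%). The families hold the same 40 genes and 36 more. The deacetylases stood lowest there too, with 9 of 18 (50%, 26.0 to 74.0%). The other shares were 11 of 13 acetyltransferase genes (84.6%, 54.6 to 98.1%), 16 of 21 scaffold genes (76.2%, 52.8 to 91.8%) and 17 of 20 demethylase genes (85.0%, 62.1 to 96.8%). For the deacetylases this is no independent check, since 15 of the 18 are on the list and the 9 are the same genes.

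**Figure D1:**
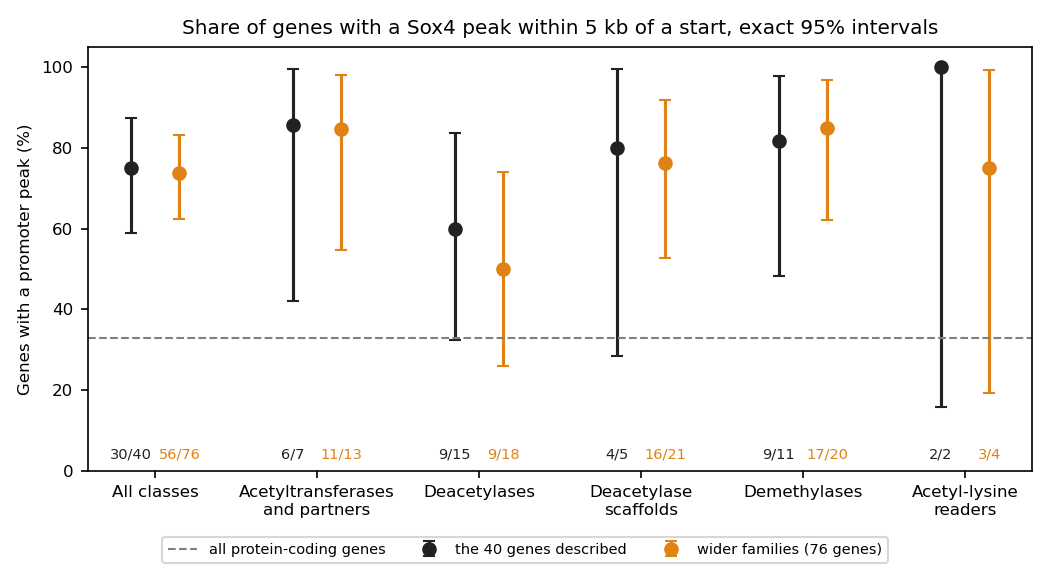
Share of genes with a Sox4 peak within 5 kb of a TSS (vertical axis, percent) by class, for the 40 genes and for the 76 genes of the wider families. Bars are exact 95% intervals for counting error, figures at the foot are counts, and the dashed line marks all protein-coding genes at 32.8%. Deacetylases sit lowest in both sets at this window.

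The promoters of 6 genes, chosen by class or by fold, are shown first. For the highest-scoring gene of each class other than Epc1, and for Trim28 with the highest fold of all 30, these are the 250 bases before the most upstream start in the RefSeq promoter table (GRCm38.p6, 5′ to 3′). Capitals mark matches to the motifs searched on both strands. For SOX factors these were ACAAAG and its variant ACAATG. For SP and KLF factors the letters were GGGCGG, and for ETS factors they were CCGGAAG. NF-Y was represented by CCAAT, and NRF1 by the palindrome-like GCGCATGCG. YY1 was represented by AAGATGGCG and the TATA box by TATAAA. By gene length, the start after each stretch lay inside the peak for all 6 genes, and the summit lay in none of the 6 stretches. For 4 of them the RefSeq gene span begins further upstream than that start, by 5 bp for Ep300, 73 bp for Kdm3a, 207 bp for Brd2 and 247 bp for Hdac2.
Ep300 (chr15:81585964-81586213, plus strand): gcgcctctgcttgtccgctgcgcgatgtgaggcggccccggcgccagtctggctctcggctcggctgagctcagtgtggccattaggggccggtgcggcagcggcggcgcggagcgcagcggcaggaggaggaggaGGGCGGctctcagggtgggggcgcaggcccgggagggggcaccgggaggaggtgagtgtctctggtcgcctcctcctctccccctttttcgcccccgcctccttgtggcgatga
Hdac2 (chr10:36974294-36974543, plus strand): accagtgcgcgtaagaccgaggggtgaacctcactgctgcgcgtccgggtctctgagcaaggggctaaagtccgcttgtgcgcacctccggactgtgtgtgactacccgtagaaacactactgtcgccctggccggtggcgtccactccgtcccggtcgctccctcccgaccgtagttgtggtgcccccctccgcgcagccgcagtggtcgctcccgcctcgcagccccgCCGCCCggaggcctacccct
Fam60a (chr6:148946471-148946720, minus strand): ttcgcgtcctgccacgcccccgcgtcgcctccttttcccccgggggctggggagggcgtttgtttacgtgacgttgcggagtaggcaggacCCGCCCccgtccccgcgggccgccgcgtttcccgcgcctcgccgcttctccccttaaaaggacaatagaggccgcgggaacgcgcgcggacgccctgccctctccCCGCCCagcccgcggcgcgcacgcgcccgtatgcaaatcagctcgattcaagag
Trim28 (chr7:13023902-13024151, plus strand): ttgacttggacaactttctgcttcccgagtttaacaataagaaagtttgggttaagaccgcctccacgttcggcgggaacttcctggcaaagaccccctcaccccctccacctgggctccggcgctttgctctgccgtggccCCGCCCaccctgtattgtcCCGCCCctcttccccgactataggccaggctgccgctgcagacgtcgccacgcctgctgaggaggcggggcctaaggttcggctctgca
Kdm3a (chr6:71632918-71633167, minus strand): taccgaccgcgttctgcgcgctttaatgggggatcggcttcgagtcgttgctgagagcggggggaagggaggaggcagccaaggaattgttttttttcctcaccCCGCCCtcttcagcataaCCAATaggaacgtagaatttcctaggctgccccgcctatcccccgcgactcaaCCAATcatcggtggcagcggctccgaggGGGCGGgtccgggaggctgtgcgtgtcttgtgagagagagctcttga
Brd2 (chr17:34122608-34122857, minus strand): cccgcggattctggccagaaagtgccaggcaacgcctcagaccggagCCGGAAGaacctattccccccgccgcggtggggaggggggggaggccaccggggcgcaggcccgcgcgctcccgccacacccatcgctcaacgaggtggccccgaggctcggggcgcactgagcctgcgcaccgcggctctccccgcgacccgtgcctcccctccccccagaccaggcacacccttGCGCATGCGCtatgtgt
The stretches are rich in G and C, from 59.6% for Kdm3a to 73.6% for Brd2. Each but that of Brd2 holds GGGCGG or its complement, which is in the 300-base window (250 before to 50 after a start) of 47.7% of all protein-coding starts. That of Kdm3a also holds CCAAT at 128 and 75 bases before the start (38.4% of all windows). That of Brd2 holds CCGGAAG (11.9% of all windows) 203 bases before the start, and GCGCATGCG on both strands at overlapping positions, 17 and 16 bases before it (2.43% of all windows). None of the 6 stretches holds ACAAAG or ACAATG, which are in 16.7% and 10.4% of all windows. A match of letters is a description and not a binding site, and a lack of one says only that these letters are not in this window.

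Over the 31 genes of the 40 that matched the RefSeq promoter table, median GC and CpG content were higher where a promoter peak was present. Kdm6b, Hdac1, Epc1, Hdac3, Hdac10, Kdm2a, Kdm3b, Kdm4b and Kdm5a did not match. The 23 with a promoter peak had a median GC content of 63.2% (44.7 to 82.0%) and 24 CpG per 300-base window (1.5 to 49). The corresponding medians over all 5599 protein-coding genes with a promoter peak were 62.7% and 23.5. The 8 without a promoter peak had 57.5% GC and 18.5 CpG (13 to 32), and the medians over all 11184 genes without one were 53.0% and 7. So the unmarked genes of the list still carried more CpG than unmarked genes in general, and the ranges of marked and unmarked members overlap. SP/KLF letters were in 20 of the 23 (87.0%, against 75.2% of all genes with a promoter peak). Either SOX form was in 9 of the 23 (39.1%, against 24.1% of genes with a promoter peak and 30.4% of those without). The 9 were Brd3, Hdac7, Hdac9, Kat2b, Kat5, Kdm2b, Sirt2, Sirt5 and Sirt6. Genes with several starts have several windows and so more chances of a match. GC and CpG content thus moved with the presence of a promoter peak over all genes, and their part in the counts above was not tested.

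**Figure D2:**
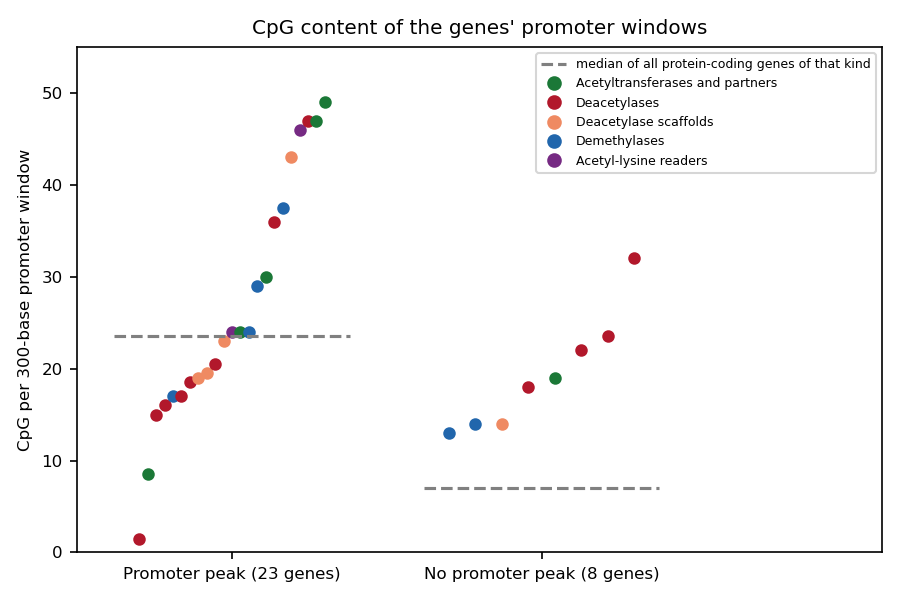
CpG dinucleotides per 300-base RefSeq promoter window (vertical axis, median over the windows of a gene) for the 23 genes with a promoter peak and the 8 without. Each point is a gene coloured by class, and dashed lines are the medians of all protein-coding genes with (23.5) and without (7) a promoter peak. Genes of the list without a peak lie between 13 and 32, above their dashed line.

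The promoter peaks of the 30 genes had higher median values than those of all genes, but those of the family genes left off the list lay close to the general medians. Where a gene had several, the one with the highest score was taken. The score is read as minus 10 log10 of the p-value of the peak caller, and the fold is tags over its expected background. Over the 30 genes the median score was 232.2 (54.0 to 3100), against 119.2 over all 6875 genes with a promoter peak. The median fold was 5.33 (3.51 to 40.05) against 4.51. The median width was 1399 bp against 982 bp, and 25 of the 30 peaks were wider than that. Per kb of peak, the median was 86.5 tags (58.4 to 401.5) against 78.1. The 26 family genes off the list that had a promoter peak had a median score of 127.0, a median fold of 4.30, a median width of 1088 bp and a median of 78.8 tags per kb. Since the list was drawn up with results of these data known, its higher values are not shown to be a trait of these gene families. Of the 30 genes, 24 exceeded the general median in score, 23 in fold and 23 in tags per kb. Only 4 of the 40, Epc1, Fam60a, Trim28 and Brd2, reached fold 10 (10%, 2.79 to 23.7%, background 1.48%). None of the 15 deacetylases (0 to 21.8%) or 11 demethylases (0 to 28.5%) had a promoter peak of that fold, and both intervals hold the background share. Fold values come in steps: exactly 5.33 was given for 35 peaks of the list, among them those chosen for Kat2b, Sirt1, Sirt2 and Kdm4b.

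**Figure D3:**
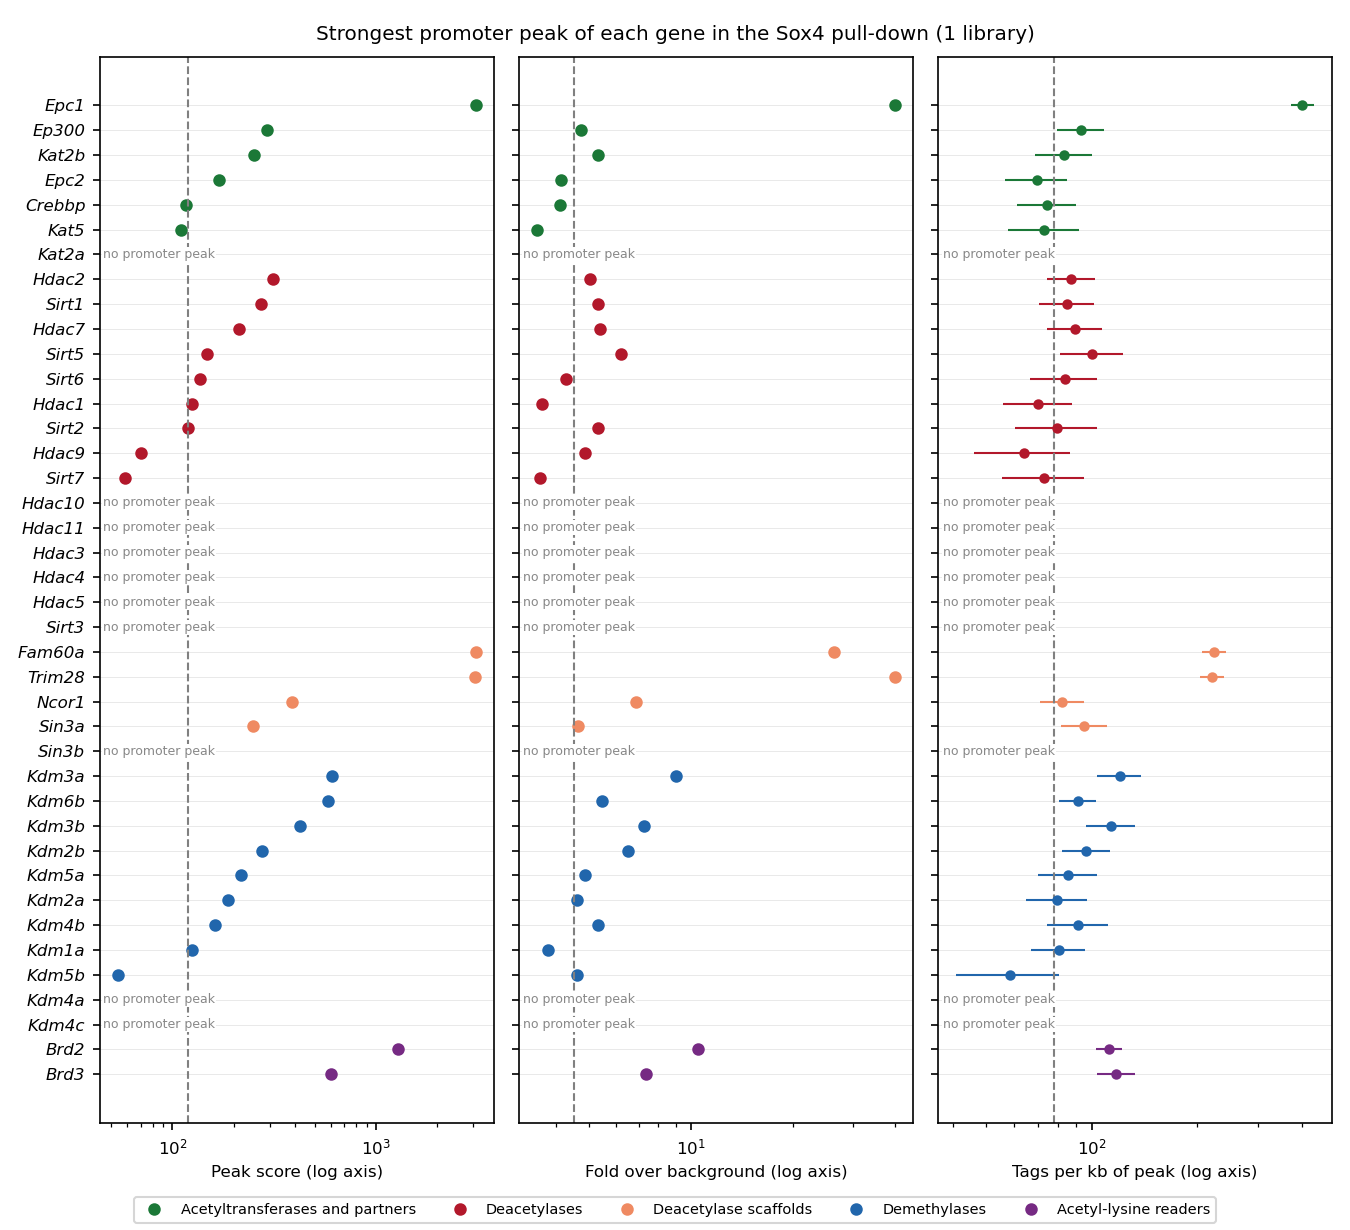
Score, fold and tags per kb (log axes) of the strongest promoter peak of each of the 40 genes, by class. Bars on tags per kb are exact Poisson 95% intervals, dashed lines are the medians of all genes with a promoter peak (119.2, 4.51 and 78.1), and genes without one are marked in words. Epc1, Fam60a and Trim28 stand far to the right of the other genes in all panels.

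Of the acetyltransferase genes, the strongest signal was at a partner and not at an enzyme. Epc1 encodes a scaffold subunit of the NuA4 complex, which holds the acetyltransferase Tip60. Its stronger peak on chromosome 18 from 6489613 to 6491237 (mm9) held 652 tags (exact Poisson 95% interval 603 to 704) at fold 40 and score 3100, at 401.5 tags per kb. This peak did not lie at the first start of the gene. It covered the start of the transcripts NM_027497 and NM_001276350 and that of the microRNA gene Mir1893, 24869 bp inside transcript NM_007935. The list gives Mir1893 as the closest gene of this peak. The same score of 3100 was given to the Fam60a peak, so score does not order these peaks. The start of NM_007935 had a peak of its own, from 6515777 to 6516848, with 112 tags, fold 7.04 and score 260.7. Both starts of Epc1 were thus marked, the inner one with 652 tags against 112. Epc2, the paralogue, held 96 tags (77.8 to 117) at fold 4.12 and score 168.7. In tags per kb Epc2 (69.6, 56.4 to 85.0) lay far below the inner Epc1 peak (371 to 434), with intervals that do not overlap.

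Kat5, which encodes Tip60 itself, held 75 tags (59.0 to 94.0) at fold 3.51 and score 110.3, and its fold was the lowest of the 30 genes. Ep300 encodes p300, a broad coactivator and acetyltransferase. Its peak held 166 tags (142 to 193) at fold 4.74 and score 291.0, above 86.6% of genes with a promoter peak. Crebbp, encoding the closely related CBP, held 105 tags (85.9 to 127) at fold 4.09 and score 116.1, above 48.3% of them. Ep300 thus stood above Crebbp in score. Their densities of 93.4 (79.7 to 109) and 74.7 (61.1 to 90.4) tags per kb have overlapping intervals. Kat2b, encoding the SAGA-type acetyltransferase PCAF, held 116 tags at fold 5.33 and score 251.2. Kat2a, encoding the alternative subunit GCN5, was listed for no peak at all.

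Among the zinc-dependent deacetylases, the closely related class I genes Hdac1 and Hdac2 both had a peak over the start. Hdac2 held 158 tags (134 to 185) at fold 5.02 and score 313.6, the highest score of the class. Hdac1 held 78 tags (61.7 to 97.4) at fold 3.64 and score 125.2. Hdac2 therefore had the higher tag count with intervals that do not overlap, but its peak was also wider (1808 against 1108 bp), and the densities of 87.4 (74.3 to 102) and 70.4 (55.7 to 87.9) tags per kb overlap. Hdac1 was also listed for one of the highest peaks of the library (426 tags, fold 21.7, score 2096.1, rank 21 of 8730). That peak lay 1209 bp past the end of Hdac1 and covered the start of Marcksl1, so it was not counted for Hdac1. Hdac3, the catalytic partner of Ncor1, had only a peak 954 bp past its end, which covered the start of Diap1 (fold 5.05, score 163.3).

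The class IIa genes, whose proteins shuttle between nucleus and cytoplasm, were unequal. Hdac7, the class IIa enzyme known for silencing non-B genes in B-cell precursors, held 121 tags (100.4 to 145) at fold 5.40 and score 213.0. The peak covered the start of NM_001204276, NM_001204277 and NM_019572. Its edge lay 12498 bp inside other listed transcripts and 15792 bp upstream of the start of NM_001204281. A further weak peak lay 5391 bp inside NM_001204276, just outside the promoter window (47 tags, fold 3.60, score 52.8). Hdac9 held 42 tags (30.3 to 56.8) at fold 4.85 and score 70.0. This peak covered the start of NM_024124, and its edge lay 387556 bp inside the other listed transcript, NM_001271386. An intronic peak of Hdac9 was stronger (60 tags, fold 6.67, score 109.8). Hdac5 had a peak in an exon 10785 bp inside the gene (74 tags, fold 4.33, score 86.6) and none at the start, and Hdac4 had no peak. Of the other classes, Hdac10 was listed only for a peak 20388 bp upstream that covered the start of Mapk11 (fold 3.64), and Hdac11 for none. In all, 4 of the 9 zinc-dependent genes had a promoter peak (44.4%, 13.7 to 78.8%, background 32.8%), an interval that holds the background share.

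Of the 6 sirtuin genes, 5 had a promoter peak (83.3%, 35.9 to 99.6%, background 32.8%), an interval that overlaps that of the zinc-dependent genes. Sirt1, encoding the nuclear sirtuin that acts on histones and p53, held 121 tags (100.4 to 145) at fold 5.33 and score 271.9. Sirt6, a chromatin-bound deacetylase, held 83 tags (66.1 to 103) at fold 4.26 and score 137.4. Sirt2, mainly a cytoplasmic tubulin deacetylase, held 56 tags (42.3 to 72.7) at fold 5.33 and score 119.2. The Sirt2 peak also covered the start of Nfkbib, which the list gives as the closest gene. The peaks of the remaining sirtuins lay off the start. For Sirt5, a mitochondrial enzyme, the peak was 4705 bp upstream (93 tags, fold 6.21, score 148.1), and it lay just inside the 5 kb window. For Sirt7, a nucleolar enzyme, it was 2667 bp upstream (57 tags, fold 3.58, score 58.2). A stronger peak 7414 bp upstream of Sirt7 covered the start of Mafg (fold 5.35, score 214.8). Sirt3, the main mitochondrial deacetylase, had a single peak 7035 bp inside the gene (69 tags, fold 7.17, score 151.9).

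Of the scaffold genes, Trim28 and Fam60a held some of the strongest peaks of the library. The class as a whole did not stand out in fold. Over the 16 scaffold genes of the wider families with a promoter peak the median fold was 4.5, against 4.51 over all genes with one. Their median score was 171.5 against 119.2, their median width 1626 against 982 bp, and their median density 80.9 against 78.1 tags per kb. These 16 include the 4 scaffold genes of the list that had a promoter peak. Trim28 encodes KAP1, the corepressor that KRAB zinc finger proteins bring to DNA. Its peak on chromosome 7 from 13608008 to 13610757 held 608 tags (561 to 658) at fold 40.05 and score 3068.6, and ranked 5 of 8730 by fold and 10 by score. Fam60a encodes a subunit of the SIN3 deacetylase complex and is named Sinhcaf in the RefSeq table. Its peak on chromosome 6 from 148892730 to 148895564 held 636 tags (587.5 to 687) at fold 26.5 and score 3100. The density was alike in both, with 221 (204 to 239.5) tags per kb for Trim28 and 224 (207 to 243) for Fam60a. Of the 40 genes, only Epc1 was denser.

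The SIN3 scaffold genes themselves differed. Sin3a, encoding the main scaffold of the complex, had 3 promoter peaks, and Sin3b was listed for none. The highest-scoring Sin3a peak held 168 tags (144 to 195) at fold 4.65 and score 248.2, and lay 567 bp inside transcript NM_001110351 and 2008 bp upstream of the start shared by NM_001110350 and NM_011378. That shared start was covered by a weaker peak (51 tags, fold 3.64, score 58.5), and another peak lay 124 bp beyond it (79 tags, fold 3.73, score 133.7). Ncor1, encoding the scaffold that activates Hdac3, held 185 tags (159 to 214) at fold 6.89 and score 388.0. The Ncor1 peak covered the start of NM_177229 and that of Pigl, the closest gene by the list. It lay 18128 bp upstream of the starts of NM_011308 and NM_001252313, where no peak was listed.

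Kdm3a and Kdm3b, of the KDM3 family, had the highest promoter peaks of the demethylase genes by fold. Jmjd1c, of the same family but off the list, had only fold 4.17 and score 60.1. Kdm3a encodes a demethylase of histone H3 lysine 9, and its peak held 187 tags (161 to 216) at fold 9.03 and score 610.1. Kdm3b, its paralogue, held 149 tags (126 to 175) at fold 7.25 and score 425.4. Their densities of 120.3 (104 to 139) and 114 (96.1 to 133) tags per kb have overlapping intervals. Kdm6b, a demethylase of histone H3 lysine 27, was marked differently, on both sides of its start and not over it. A broad peak of 3026 bp began 1434 bp inside the gene (276 tags, 244 to 311, fold 5.45, score 578.6), and a narrow one lay 2078 bp upstream (62 tags, fold 7.08, score 154.0).

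The KDM2 genes encode demethylases of histone H3 lysine 36 with a domain that binds unmethylated CpG. Kdm2b held 154 tags (131 to 180) at fold 6.50 and score 274.8. The peak covered the start of the short transcript NM_013910, 88195 bp inside NM_001003953, and none was listed at the starts of the longer transcripts. Kdm2a held 100 tags (81.4 to 122) at fold 4.61 and score 187.3 over its start. A stronger peak lay in an intron of Kdm2a, 62695 bp inside (chromosome 19, 4333256 to 4334382; 169 tags, fold 12.4, score 520.4). It was the highest of the peaks for which a gene of the list was the closest gene and that lay outside the promoter window. Kdm1a, encoding LSD1, the flavin-dependent demethylase of the CoREST complex, held 126 tags (105 to 150) at fold 3.79 and score 124.7.

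In the KDM4 family, which acts on histone H3 lysines 9 and 36, Kdm4b alone of the 3 listed genes had a promoter peak (101 tags, 82.3 to 123, fold 5.33, score 162.3). Kdm4a was listed only for a peak 1717 bp past its end at the start of St3gal3 (fold 2.75, score 74.6), and Kdm4c for none. In the KDM5 family, which acts on histone H3 lysine 4, Kdm5a held 109 tags (89.5 to 131.5) at fold 4.85 and score 216.3. Its peak also covered the start of Ccdc77. Kdm5b held 36 tags (25.2 to 49.8) at fold 4.62 and score 54.0, the lowest score of the 30 genes and above 3.36% of genes with a promoter peak.

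Both reader genes, of the BET family whose bromodomains bind acetylated histones, had strong peaks. Brd2 had the widest promoter peak of the list, 4840 bp on chromosome 17 from 34255234 to 34260074, with 543 tags (498 to 591), fold 10.5 and score 1283.4. It covered the starts of all 3 listed Brd2 transcripts and that of the neighbouring gene H2-DMa. Brd3 held 246 tags (216 to 279) at fold 7.37 and score 604.8 in a peak of 2093 bp. Per kb the genes were alike, at 112 (103 to 122) tags for Brd2 and 117.5 (103 to 133) for Brd3, so the larger tag count of Brd2 went with its width.

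**Figure D4:**
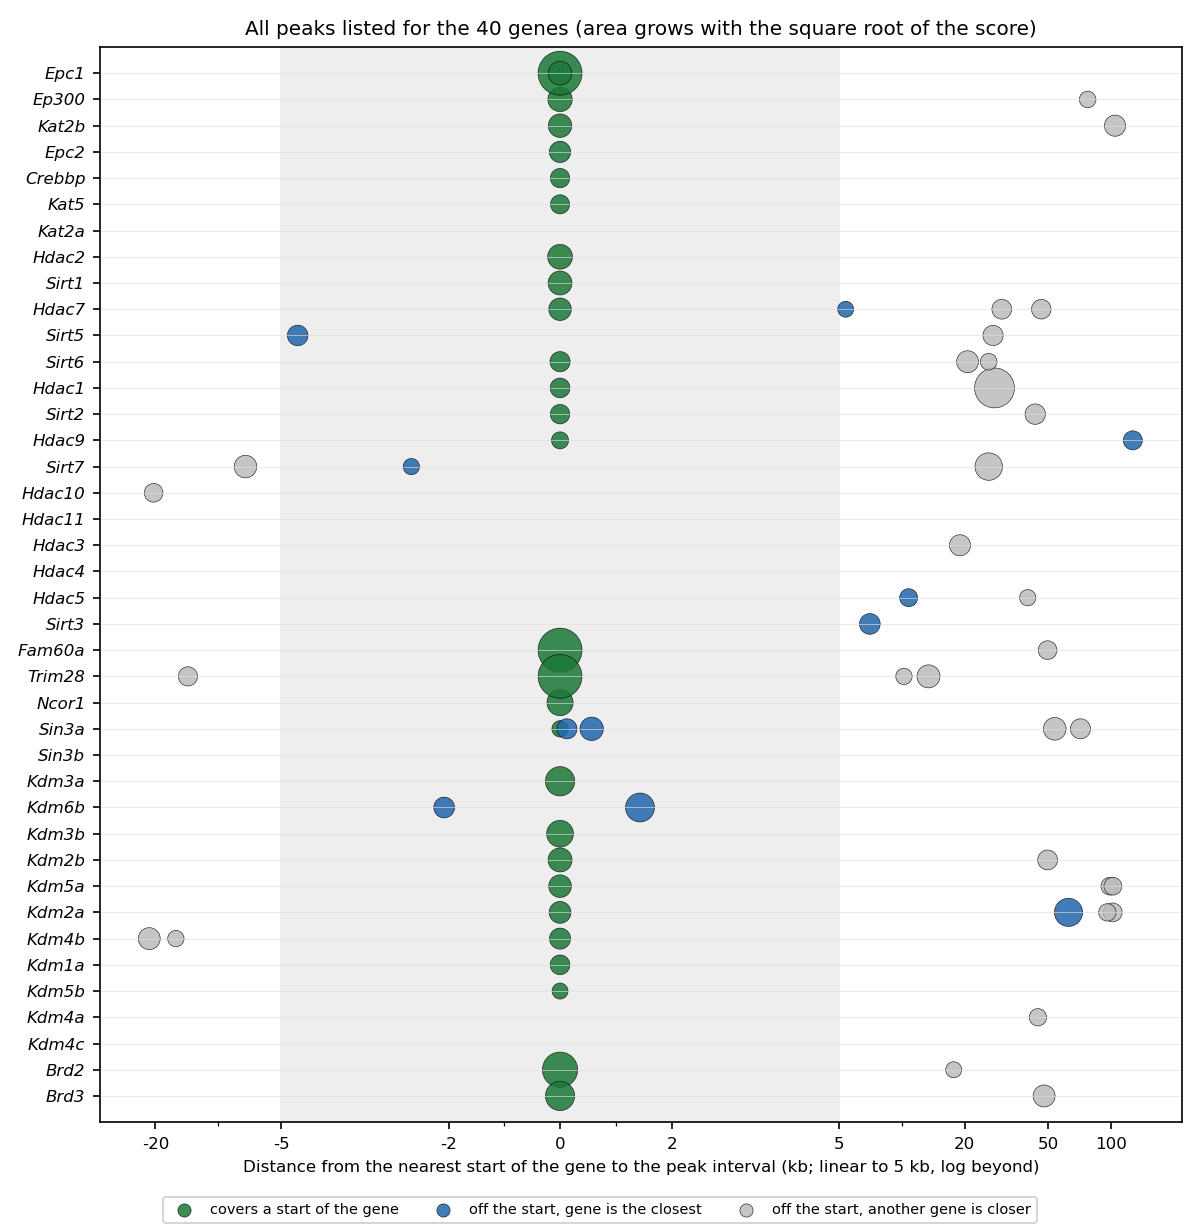
Distance in kb from the nearest start of each of the 40 genes to each of its listed peaks (horizontal axis, linear to 5 kb and logarithmic beyond, negative upstream), with the promoter window in grey. Marker area grows with the square root of the score. Most peaks inside the window cover a start (green), and most outside it belong to another gene (grey).

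The map of distances shows what else was listed. The 40 genes had 69 listed peaks, of which 35 lay outside the promoter window. For 30 of those 35 the closest gene was another one, and 24 covered the start of another gene. The 5 peaks closest to a gene of the list were those in Hdac5, Hdac7, Hdac9, Sirt3 and Kdm2a, described above. Of the 30 promoter peaks chosen, 26 covered a start of the gene (86.7%, against 83.6% over all genes with a promoter peak), and 5 covered starts of more than one gene (16.7%, against 18.9%), those of Epc1, Sirt2, Ncor1, Kdm5a and Brd2. In position the list was therefore close to genes in general. For 11 of the genes the position of the covered start could be worked out from a further peak of the same transcript. The summit lay within 250 bp of it in 8 of the 11 (72.7%, against 75.6% of 2547 such peaks over all genes). The exceptions were Ep300, with the summit 1022 bp upstream, Trim28, 858 bp upstream, and Fam60a, 1331 bp downstream. The Brd2 summit lay 53 bp from the start of NM_010238, and about 913 bp downstream of the start whose stretch is shown above. For Fam60a the RefSeq table gives a further start 1644 bp downstream of the first.

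Of the 36 family genes that were not on the list, 26 had a promoter peak (72.2%, 54.8 to 85.8%, background 32.8%). None of these peaks reached fold 10 (0 to 9.74%), an interval that holds the background share of 1.48%. Kat6a, Kat6b and Kat7 encode acetyltransferases of the MYST family, and Hat1 acetylates newly made histone H4. Among acetyltransferases, Kat6a had fold 9.05 and score 445.5, Kat6b 4.85 and 411.6, Kat14 5.42 and 230.8, Kat7 3.57 and 91.9, and Hat1 4.39 and 81.5. Kat8 was listed only beyond the promoter window, at best with fold 4.83 and score 105.3. RCOR genes encode CoREST scaffolds, MTA genes subunits of the NuRD complex, and SAP, SUDS3 and ARID4 genes subunits of the SIN3 complex. Among these, Rcor2 had fold 6.11 and score 317.8, Mta2 4.22 and 246.5, Rcor1 3.77 and 223.8, Arid4b 6.45 and 187.4, and Rcor3 4.37 and 155.6. Sap130 had fold 3.40 and score 132.6, Sap30l 3.25 and 127.5, Arid4a 4.93 and 126.5, Sap30 3.78 and 114.1, Suds3 4.63 and 69.5, and Mta1 2.63 and 63.5. Beyond the window only, Brms1 was listed at best at fold 10.35 and score 319.8, Sap18 at 4.58 and 124.3, and Brms1l at 3.41 and 74.6. Kdm5c and Kdm6a encode demethylases of histone H3 lysines 4 and 27, and Phf2 and Kdm7a encode demethylases that carry a PHD finger. Among demethylases, Phf2 had fold 5.54 and score 278.8, Kdm7a 6.44 and 179.6, Kdm5c 3.41 and 106.2, Kdm1b 3.81 and 106.0, Kdm8 3.50 and 75.7, Kdm6a 5.09 and 65.2, Jmjd1c 4.17 and 60.1, and Kdm4d 3.78 and 54.2. Sirt4 was listed only for a peak at the start of Pxn (fold 4.62, score 117.4). No peak was listed for Hdac6, Hdac8, Mta3, Phf8 or Brdt. Of these, Hdac6, Hdac8 and Phf8 lie on the X chromosome, where Kdm5c and Kdm6a had promoter peaks.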

How the data were processed

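The members and gene lists were chosen with earlier results of these data known. The submitters' processing notes name build mm9, the aligner Bowtie (0.12.8) and the peak caller MACS (1.4.2). The background library of the peak caller and the annotation tool are not given in the sources used here, and no file of the input library was analysed. The deposited tag numbers are raw counts per peak, the deposited fold is a linear ratio to the expected background, and the deposited score is taken as minus 10 log10 of a p-value, since the lowest lies just above 50. Distances run from the peak interval. Positions are printed as listed, and whether they count from 0 or 1 is not stated. Library depth is unknown, so values rank peaks within this list only.

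Of the listed transcripts, 14992 matched RefSeq (GRCm38.p6) by accession, 192 by symbol, 32 by an earlier name, leaving 12 without a match. The background was every protein-coding gene of the autosomes and X that has an NM transcript, which leaves out Kdm5d and Uty. All 40 genes are named, and genes of the wider families by peak values, except some that are not reported here. Shares have exact Clopper-Pearson and tags exact Poisson 95% intervals, for counting error only, and PCR duplicates are not in them. Tested on simulated data, a peak list built on 3000 genes, the counting returned all 1800 genes that had been given a promoter peak. Start positions came from peaks off the start, and 99.8% of 3424 transcripts with several such peaks gave 1 position within 2 bp. Alternatives varied the window, the peaks retained and the gene assignment. Python 3.11.15, pandas 2.3.3 and SciPy 1.17.1 were used.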

Additional observations from a re-analysis of the deposited data

How the results depend on the processing

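The count of 30 of 40 genes with a promoter peak stayed within 1.5 times under 5 of the 6 alternatives, from 27 to 33. The 56 of 76 family genes did likewise, from 44 to 62. The background share, 32.8% in the main setting, moved under these 5 as well. It was 18.9% with only the higher-scoring peaks kept, against 67.5% of the list and 57.9% of the families. With the 20 kb window it was 41.9%, against 82.5% and 81.6%. A steady count is thus not a steady contrast with the background. The exception among the 6 alternatives was the restriction to peaks with a fold of 5 or more. It left 17 of the 40 (background 11.9%) and 25 of the 76. That setting retains fewer peaks by construction. Under it the acetyltransferase genes went from 6 to 2, since Ep300, Crebbp, Kat5 and Epc2 lie below that fold. A window of 1 kb removed the promoter peaks of Sirt5, Sirt7 and Kdm6b. Giving each peak to its closest gene only removed those of Sirt2, Ncor1 and Kdm5a. It also took the fold 40 peak from Epc1, whose closest gene is Mir1893, and left Epc1 its peak of fold 7.04 and score 260.7. The median score of 232.2 ranged from 214.6 to 251.2 and the median fold of 5.33 from 5.17 to 5.33 over the alternatives. The medians over all genes moved too. With only the higher-scoring peaks kept, the median fold was 5.33 (4.65 to 6.89) against 5.16 over all genes, so little contrast was left. The median score was then 251.2 (162.3 to 425.4) against 179.3. No paired analysis was possible, because each group held 1 library and no file of the input library was analysed. No test was run. With 1 library, the spread between cultures is not known, and the expression of these genes was not analysed here.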
